A study of Mus musculus with 6 samples.

Results

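Podocyte marker genes were examined on 6 Affymetrix mouse arrays of dissected renal proximal tubules, 3 carrying RNA of Clcn5 knockout mice and 3 carrying RNA of wild type mice. The list holds 8 genes: Nphs1, Synpo, Podxl, Ptpro, Wt1, Cdkn1c, Magi2 and Cd2ap. A probe set, the group of oligonucleotides that reads a transcript, was taken as a member when the platform annotation gives it a single gene symbol and that symbol is on the list. This found 12 probe sets for 7 of the 8 genes, out of 34945 probe sets with a single symbol for 18193 genes. None carried Magi2, which is not analysed here. Of the 12 probe sets, 11 passed the filter on dim signals, a mean over all arrays of at least 41.9, and all 7 genes kept at least 1. The rule uses gene names and no measured values, but the members were chosen with earlier results of these data known. Counts of members beside all genes are therefore a description.

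Clcn5 encodes the endosomal chloride/proton exchanger ClC-5, and the knockout was not further described: the labels give neither the deleted part nor the strain, sex or age of the mice, and no drug treatment other than halothane anaesthesia. In both groups tubules were dissected cold after perfusion of the left kidney, at 80 to 100 pieces of 2 mm per kidney, and RNA was pooled over mice. The design text states 3 to 4 mice per pool, and the array records state 7. Each array is therefore a pool, and the p-values measure the spread between pools, which the records call biological replicates. Clcn5 was lower on all 4 of its probe sets in every knockout array, from 2.83-fold to 7.32-fold, although a probe set outside the deleted part would not check the labels.

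Podocytes are the epithelial cells that cover the outside of the glomerular capillaries. Their interlocking foot processes are bridged by the slit diaphragm, a junction built around nephrin and anchored to actin, and together with the basement membrane it forms the filtration barrier from which the proximal tubule receives its fluid. Podocytes are not tubule cells, and the labels name only tubules. Several members are also made outside podocytes: Cd2ap in many epithelia, Podxl in vascular endothelium and Cdkn1c in many tissues. In RNA of a bulk sample, fewer cells of a type and less RNA per cell cannot be told apart.

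RefSeq promoter windows of build GRCm38.p6 matched 3 of the 7 measured members: Nphs1, whose signal rose, Ptpro, whose groups separated without passing the test, and Cd2ap, whose brightest probe set had a ratio near 1. They are shown so that the upstream sequences of members with different results can be read side by side. Each is the 250 bases before the transcription start, 5′ to 3′ on the strand of the gene, at chr7:30459808-30460057 (plus strand) for Nphs1, chr6:137252049-137252298 (plus) for Ptpro and chr17:42876425-42876674 (minus) for Cd2ap. Capitals mark matches to any of 5 short motifs on either strand: GTGGGAG (the core of a WT1 element), CANNTG (the E-box, bound by basic helix-loop-helix factors), TAATTA (homeodomain), TAAACA (forkhead) and GGGCGG (GC box).
Nphs1: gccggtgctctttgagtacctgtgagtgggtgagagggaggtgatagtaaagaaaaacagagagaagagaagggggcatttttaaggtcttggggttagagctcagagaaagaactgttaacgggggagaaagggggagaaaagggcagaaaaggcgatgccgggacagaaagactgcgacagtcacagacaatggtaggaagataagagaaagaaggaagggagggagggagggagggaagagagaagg
Ptpro: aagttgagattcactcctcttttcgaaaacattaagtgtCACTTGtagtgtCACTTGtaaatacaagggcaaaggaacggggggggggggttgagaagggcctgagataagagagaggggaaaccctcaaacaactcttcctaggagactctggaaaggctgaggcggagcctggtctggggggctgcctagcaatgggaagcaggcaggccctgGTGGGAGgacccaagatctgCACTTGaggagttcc
Cd2ap: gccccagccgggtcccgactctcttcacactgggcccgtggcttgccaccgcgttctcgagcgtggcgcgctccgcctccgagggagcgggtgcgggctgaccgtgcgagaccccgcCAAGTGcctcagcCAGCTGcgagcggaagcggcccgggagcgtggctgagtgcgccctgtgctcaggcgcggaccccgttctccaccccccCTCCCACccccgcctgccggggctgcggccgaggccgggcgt
The Nphs1 window held no match to any of the 5 motifs. The Ptpro window held 3 E-boxes and 1 GTGGGAG, at 35 bases before the start. The Cd2ap window held 2 E-boxes and 1 GTGGGAG on the opposite strand, at 42 bases before the start. Neither window held the homeodomain, forkhead or GC box motif. Among all 32851 windows of the same length, GTGGGAG was present in 8.25%, an E-box in 66.2%, TAATTA in 4.84%, TAAACA in 12.03% and GGGCGG in 32.7%. The Nphs1 window stood out by composition: 77.2% of its bases were A or G, a share reached by 0.0731% of all windows. The Cd2ap window was rich in G and C at 76.4%, against a median of 52.4%, and 3.04% of windows reached that share. Letters of a window say nothing on whether a factor was bound there.

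Knockout tubules had higher signals of 2 podocyte genes, and most of the others lay on the same side without passing the test. Synpo rose 1.66-fold and Nphs1 rose 1.56-fold. Cdkn1c, Wt1, Podxl and Ptpro had fitted ratios of 1.17 to 1.34 that did not pass, and Cd2ap had a ratio of 0.997. Changes were called by limma at a Benjamini-Hochberg adjusted p under 0.05 over all 22519 kept probe sets. By this rule 2 of the 11 tested member probe sets were higher and none was lower, where 2.29% of all tested probe sets were higher and 2.46% were lower, 4.76% in either direction. At an unadjusted p under 0.05, 4 of the 7 genes passed, all of them higher, where 18.9% of all genes passed in either direction. A missed threshold does not show that a gene was level.

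**Figure D1:**
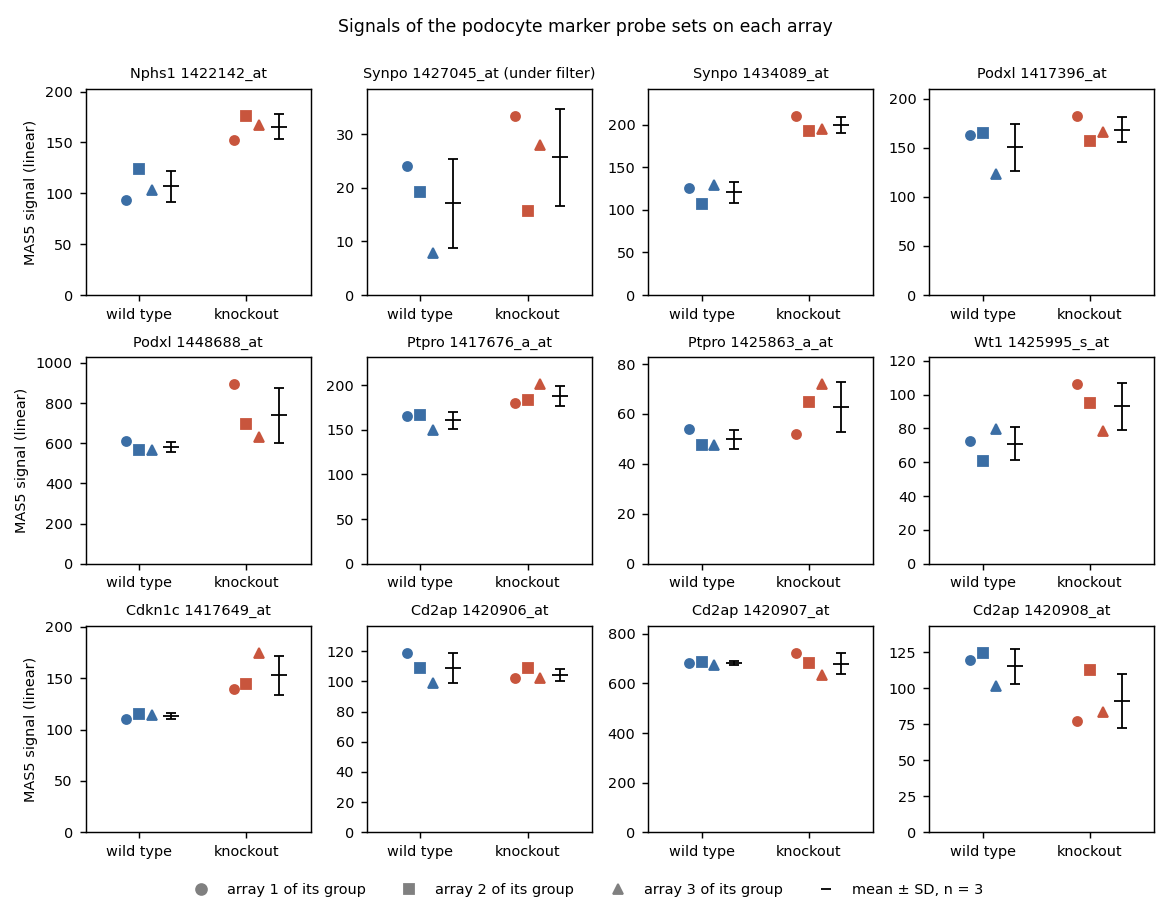
Linear MAS5 signal of the 12 member probe sets on each array, with wild type in blue and knockout in red; symbols mark the array number within its group, and black bars are the mean ± SD of 3 arrays. The knockout arrays lie wholly above the wild type arrays for Nphs1, Synpo 1434089_at, Podxl 1448688_at, Ptpro 1417676_a_at and Cdkn1c.

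Nphs1 encodes nephrin, the immunoglobulin-like adhesion protein that spans the slit diaphragm. Its only probe set, 1422142_at, gave signals of 152, 176 and 168 on knockout arrays 1, 2 and 3 and of 93.5, 124 and 103 on wild type arrays 1, 2 and 3. Every knockout array was above every wild type array, with wild type array 2 the nearest. The means were 165 ± 12.04 against 107 ± 15.4 (SD, n = 3), a rise of 1.56-fold with a 95% interval of 1.26 to 1.92 (log2 difference 0.64, SE 0.14, limma adjusted p = 0.0224). Without any of knockout array 2 or 3 or wild type array 1 or 3 the call ended, with limma adjusted p up to 0.0969 and log2 differences of 0.55 to 0.63. Arrays had been washed and stained on either of 2 fluidics stations, both of which held both groups. The log2 difference of Nphs1 was 0.74 among the 4 arrays of station 1 and 0.44 between the 2 arrays of station 2.

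Synpo encodes synaptopodin, an actin-associated protein of foot processes and of dendritic spines. Probe set 1434089_at read 211, 193 and 195 on knockout arrays 1 to 3 and 126, 107 and 129.5 on wild type arrays 1 to 3. The gap between the groups was wider than the range within either of them. The means were 199.8 ± 9.55 and 121 ± 12.1 (SD, n = 3), a rise of 1.66-fold with a 95% interval of 1.39 to 1.98 (log2 difference 0.73, SE 0.11, limma adjusted p = 0.00411). The call held without each array in turn, at an adjusted p of at most 0.019, and the log2 difference was 0.66 on station 1 and 0.87 on station 2. The other Synpo probe set, 1427045_at, was under the filter, with signals of 15.7 to 33.5 in knockout and 7.87 to 24.1 in wild type. Its groups overlapped, and its log2 difference of 0.67 had a 95% interval of -0.50 to 1.83 when all probe sets were fitted. The rise of Synpo therefore rests on 1 probe set.

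Podxl encodes podocalyxin, the charged sialomucin that keeps foot processes apart, and its probe sets are annotated to the same transcript record. Probe set 1448688_at read 893, 696 and 629 on knockout arrays 1 to 3 and 612, 564 and 567 on wild type arrays 1 to 3. Knockout array 1 stood well above the rest, and knockout array 3 was close to wild type array 1. The ratio was 1.26 (log2 difference 0.33, 95% interval 0.08 to 0.59, limma adjusted p = 0.167). Without knockout array 1 the log2 difference was 0.19. Probe set 1417396_at read 183, 157 and 166 in knockout and 163, 165 and 123 in wild type, so that its groups overlapped. Its log2 difference was 0.17 (95% interval -0.13 to 0.48, limma adjusted p = 0.577), with 0.26 on station 1 and 0.01 on station 2. Without wild type array 3 it was 0.035, and without knockout array 1 it was 0.115.

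Ptpro encodes a receptor tyrosine phosphatase of the apical podocyte membrane, also called GLEPP1. Probe set 1417676_a_at read 180, 183 and 201 on knockout arrays 1 to 3 and 165, 167 and 149.6 on wild type arrays 1 to 3. The groups did not overlap, but the gap between them was smaller than the range within either. The log2 difference was 0.23 (95% interval 0.00 to 0.46, limma adjusted p = 0.292). The dimmer probe set 1425863_a_at read 51.9, 64.8 and 71.8 in knockout and 54.2, 47.7 and 47.6 in wild type. There knockout array 1 lay among the wild type arrays, and the log2 difference was 0.32 (95% interval -0.12 to 0.77), with 0.19 on station 1 and 0.59 on station 2.

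Wt1 and Cdkn1c are regulators of the podocyte's differentiated state. Wt1 encodes a zinc finger transcription factor that activates podocyte genes, and its probe set 1425995_s_at read 106, 94.7 and 78.6 on knockout arrays 1 to 3 and 72.3, 60.5 and 79.8 on wild type arrays 1 to 3. Knockout array 3 fell within the wild type range. The log2 difference of Wt1 was 0.39 (95% interval 0.00 to 0.79, limma adjusted p = 0.292). Cdkn1c encodes p57, a cyclin-dependent kinase inhibitor of resting podocytes, and its probe set 1417649_at read 139.5, 145 and 174 in knockout and 110.0, 115 and 114 in wild type. All knockout arrays were higher, with array 3 the highest, and the wild type arrays were close together. The log2 difference of Cdkn1c was 0.43 (95% interval 0.15 to 0.70, limma adjusted p = 0.0947), with 0.34 on station 1 and 0.60 on station 2.

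Cd2ap encodes the adaptor protein that ties the slit diaphragm to actin and to endocytic traffic. Its 3 probe sets are annotated to the same transcript record and differed in their values. The brightest, 1420907_at, read 722, 682 and 635 on knockout arrays 1 to 3 and 683, 688 and 672 on wild type arrays 1 to 3. The knockout arrays spread on both sides of the wild type arrays, and the log2 difference was -0.005 with a 95% interval of -0.16 to 0.15. Probe set 1420906_at, between 98.8 and 119 on all arrays, had a log2 difference of -0.06 (95% interval -0.35 to 0.23). Probe set 1420908_at read 77.3, 113 and 83.5 in knockout and 119.6, 124 and 102 in wild type, a log2 difference of -0.35 (95% interval -0.73 to 0.03, limma adjusted p = 0.33). Cd2ap was the only one of the 7 genes whose representative probe set was not above 0.

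**Figure D2:**
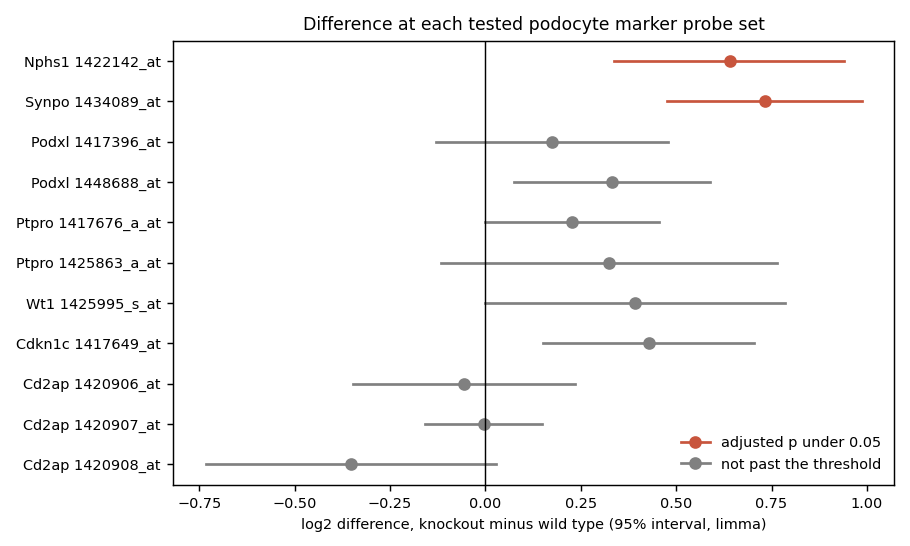
Log2 difference, knockout minus wild type, of the 11 tested member probe sets with limma's 95% intervals; red marks an adjusted p under 0.05. Nphs1 (0.64) and Synpo 1434089_at (0.73) pass, and the 3 Cd2ap probe sets are the only ones at or below 0.

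For counts over genes, the brightest kept probe set stood for each gene. By these, 2 of the 7 genes were called, against 5.59% of all genes in either direction, and 6 of 7 genes were above 0 with a median log2 difference of 0.39, against a median of 0.01 over all 11620 tested genes, of which 51.7% were above 0. The groups did not overlap for 5 of the 7 genes, all higher in knockout, where 13.6% of all genes had such groups. The members were not high on a single array. Averaged over the 7 genes after centring each, the log2 level was 0.25, 0.18 and 0.16 on knockout arrays 1, 2 and 3 and -0.20, -0.21 and -0.18 on wild type arrays 1, 2 and 3. Within the knockout group the genes ordered the arrays differently: Synpo, Podxl and Wt1 were highest on array 1, Nphs1 on array 2, and Ptpro and Cdkn1c on array 3. Knockout array 3 had a solution lot of its own in the array records, which do not say what the solution was. It also had the highest median signal, 48.8 against 40.9 to 45.3 on the others. Without it the median log2 difference of the members was 0.44. The same median over the arrays of station 1 alone was 0.40.

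**Figure D3:**
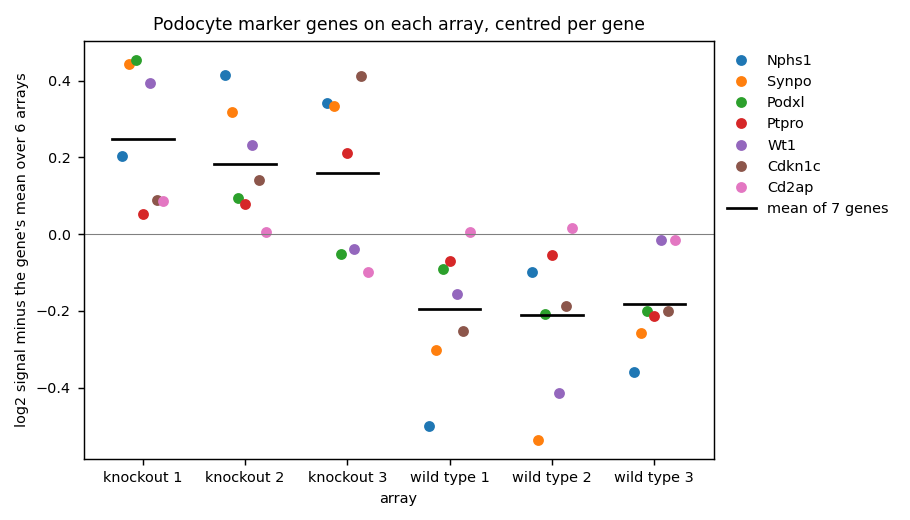
Log2 signal of the representative probe set of each of the 7 member genes on each array, minus the gene's mean over 6 arrays; black lines are the mean of the 7 genes. The means are 0.16 to 0.25 on the knockout arrays and -0.21 to -0.18 on the wild type arrays.

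Most other genes of the podocyte did not pass the test. The slit diaphragm and foot process list had 24 tested genes of 30 listed, of which 2 rose and none fell, against 2.80% of all genes in each direction. They were Fat1, a giant cadherin of the slit diaphragm, at 1.34-fold (680 ± 69.1 against 505 ± 33.0, SD, n = 3, limma adjusted p = 0.0198) and Dag1, the dystroglycan that binds laminin, at 1.25-fold (limma adjusted p = 0.0277). The other 3 kept probe sets of Dag1 were at log2 differences of -0.13 to 0.04. The call of Fat1 ended without any wild type array, and that of Dag1 without every array except knockout array 3. Neither was called among the arrays of station 1 alone (limma adjusted p = 0.121 and 0.0843). Itga3, the integrin alpha 3 chain that holds podocytes to the basement membrane, was called only without knockout array 1 (limma adjusted p = 0.0335, against 0.168 with all arrays). The median log2 difference of this list was 0.04, with 16 of 24 genes above 0. Its groups did not overlap for 7 genes in the higher and 3 in the lower direction, against 13.6% and 11.6% of all genes.

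Among 5 tested podocyte transcription factors of 8 listed none passed limma's threshold, against 2.80% of all genes in each direction. Where 18.9% of all genes had an unadjusted p under 0.05 in either direction, 1 of these 5 did. That was Tcf21, a basic helix-loop-helix factor of podocytes and stroma, with a log2 difference of -0.30 (155 ± 6.99 against 191 ± 8.95, SD, n = 3, limma adjusted p = 0.137), below 0 while Wt1 was above. Foxc2, a forkhead factor, had a log2 difference of 0.39 (limma adjusted p = 0.424), which was 0.16 without knockout array 3, and the list had a median of 0.13.

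Of 13 tested podocyte-enriched genes out of 16 listed, 1 rose and 1 fell, against 2.80% of all genes in each direction. The 2 calls held without each array in turn. Sema3g, a secreted semaphorin, rose 1.55-fold (425 ± 27.6 against 275 ± 25.2, SD, n = 3, limma adjusted p = 0.00266). Its signals were 457, 406 and 412 in knockout and 276, 249.8 and 300.3 in wild type. Angpt1, the angiopoietin that stabilises endothelium and is made by podocytes and by stromal cells, fell 1.79-fold (105 ± 7.29 against 189 ± 17.0, SD, n = 3, limma adjusted p = 0.00217). Sema3g and Angpt1 both separated the groups, in opposite directions. The list had 11 of 13 genes above 0, where 51.7% of all genes were, and a median of 0.18. Its groups did not overlap for 7 genes in the higher and 1 in the lower direction, against 13.6% and 11.6% of all genes. An unadjusted p under 0.05 was reached by 8 of the 13, against 18.9% of all genes in either direction. Crim1, a transmembrane regulator of growth factors, was called as well without knockout array 1 (limma adjusted p = 0.0346).

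The basement membrane that podocytes share with the endothelium had 2 of 10 tested genes higher and none lower. Of all genes 2.80% were called in each direction. Col4a3 and Col4a4 encode the collagen IV alpha 3 and alpha 4 chains, which podocytes secrete into the mature glomerular membrane and which some tubule membranes also hold. Col4a4 rose 1.41-fold (1066 ± 24.4 against 756 ± 26.2, SD, n = 3, limma adjusted p = 0.000998). Its other probe sets had log2 differences of 0.38, which was not called, and 0.75 (limma adjusted p = 0.0527 and 0.000988). Col4a3 rose 1.42-fold (753 ± 58.1 against 528 ± 40.5, SD, n = 3, limma adjusted p = 0.00523). Its other probe set was at 0.42 with overlapping groups and was not called (limma adjusted p = 0.179). Both calls held without each array in turn. Col4a5, Lama5, Lamb2 and Lamc1 did not pass, the list had a median of 0.09, and Hspg2, the proteoglycan perlecan, was called lower without knockout array 1 (limma adjusted p = 0.00951, against 0.337).

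**Figure D4:**
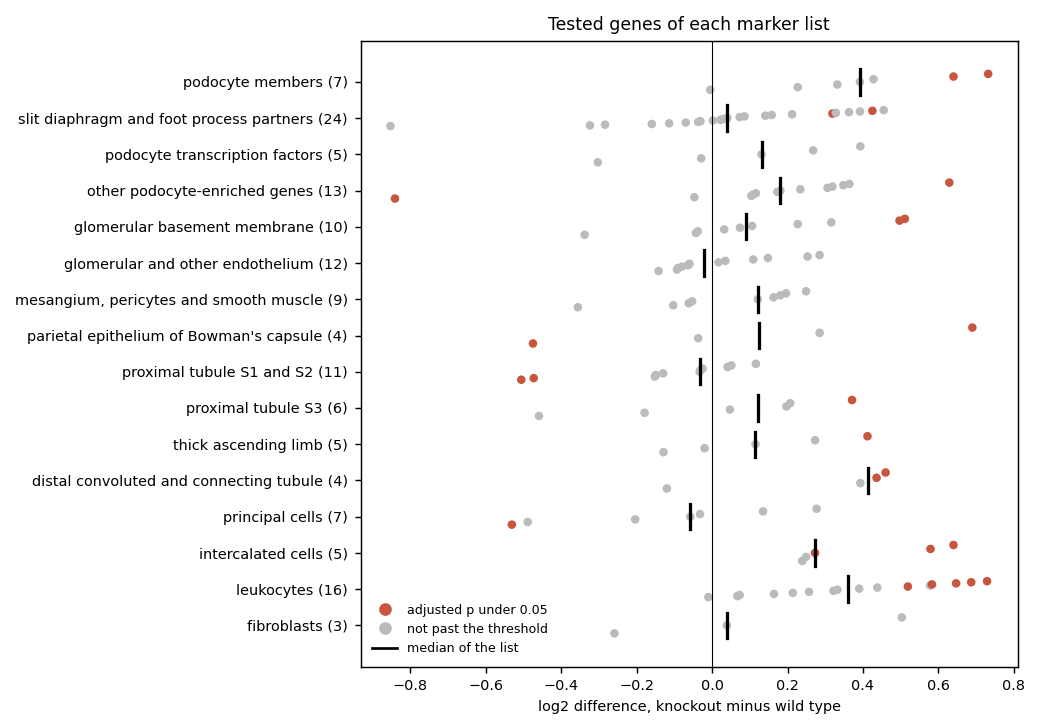
Log2 difference, knockout minus wild type, of every tested gene of the 16 marker lists, with the number tested in brackets; red marks an adjusted p under 0.05 and the black bar is the list's median. The medians furthest to the right are those of the distal convoluted and connecting tubule (0.41), the podocyte members (0.39), leukocytes (0.36) and intercalated cells (0.27), and the endothelial median is -0.02.

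Markers of the other cells of a glomerulus were read on the same arrays. Of all genes 2.80% were called in each direction. An unadjusted p under 0.05 was reached by 18.9% in either direction, and 51.7% were above 0. Of 12 endothelial genes none passed limma's threshold and 1 had an unadjusted p under 0.05; 6 were above 0, and the median log2 difference was -0.02. Emcn, an endothelial sialomucin, was at 0.15 (limma adjusted p = 0.371). Plat, the tissue plasminogen activator, was at 0.29 (limma adjusted p = 0.174), and was called without knockout array 3 (0.0209). The summed signal of the endothelial list was 3145 to 3226 on the knockout arrays and 3051 to 3081 on the wild type arrays. That of the 7 podocyte members was 2081 to 2404 and 1815 to 1862. Podxl and Cd2ap, the brightest members, made up most of the podocyte sum on every array, and neither passed the test. Of 9 tested mesangial, pericyte and smooth muscle genes out of 12 listed none passed and 1 had an unadjusted p under 0.05. Acta2, smooth muscle actin, was at 0.18 (limma adjusted p = 0.219), Agtr1a, the angiotensin receptor, at 0.12 (0.346), and the median was 0.12, with summed signals of 2124 to 2221 against 2030 to 2087. The groups did not overlap for 4 of these 9 genes, all higher in knockout, where 13.6% of all genes had such groups. None of the 12 endothelial genes had groups apart. Of 4 tested genes of the parietal epithelium of Bowman's capsule, out of 6 listed, 1 rose and 1 fell, with summed signals of 847 to 930.4 against 1027 to 1067. Cldn1, a claudin of parietal cells, rose 1.61-fold (159 ± 8.49 against 98.7 ± 8.29, SD, n = 3, limma adjusted p = 0.00818), with its other probe set at 0.04, and was not called on station 1 alone (0.0618). Prom1, which tubule cells also make, fell 1.39-fold (600 ± 21.7 against 834 ± 22.85, SD, n = 3, limma adjusted p = 0.0017). It was the brightest of the 4 genes and made up most of their summed signal, so the sum followed Prom1. Ncam1 was at -0.04 (limma adjusted p = 0.957) and Vcam1 at 0.285 (0.59).

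Of 16 tested leukocyte markers 5 rose and none fell, against 2.80% of all genes in each direction. In this list 15 genes were above 0, and the median was 0.36. Cd74, the invariant chain of class II antigen presentation, rose 1.66-fold and Csf1r, a macrophage growth factor receptor, by 0.58 on the log2 scale (limma adjusted p = 0.00018 and 0.000422). H2-Aa and H2-Eb1, chains of class II molecules, rose 1.61-fold and 1.43-fold. The call of the fifth, Laptm5, a lysosomal membrane protein gene of blood cells, ended without knockout array 1 or 3 or wild type array 2 or 3 (limma adjusted p up to 0.103). The other kept probe sets of Csf1r were at 0.69 (limma adjusted p = 0.00818) and 0.34 (0.102). The remaining genes of the list did not pass. Among them were H2-Ab1, a class II chain gene, at 0.16 (limma adjusted p = 0.3125) and Ptprc at 0.39 (0.3106). The summed signal of all 16 leukocyte genes was 5878 to 6264 on the knockout arrays and 4226 to 4261 on the wild type arrays. Among 11 genes that mark proximal tubule segments S1 and S2, none rose and 2 fell, with a median of -0.03 and summed signals of 31870 to 34000 against 32970 to 36730. They were the amino acid transporter genes Slc6a19, 1.42-fold lower, and Slc7a7, 1.39-fold lower, while Lrp2, the megalin gene that marks this epithelium, had signals of 4152 to 4559 and 3865 to 4367. The part of these cell types in the differences of the podocyte genes was not tested.

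The genes whose pattern over the 6 arrays was most like the mean centred profile of the 7 members were Hddc3, Crym, Cox18, Adamts1 and H2-Aa. Pearson's r with that profile was 0.994 to 0.998 over 6 arrays, given as a description: the points share the arrays and their scaling and fall into the 2 groups. All 5 were higher in knockout. Hddc3, a phosphohydrolase gene, rose 2.38-fold (131 ± 16.0 against 54.7 ± 3.26, SD, n = 3), and Crym, which encodes a thyroid hormone binding protein, rose 2.02-fold (525 ± 58.0 against 259 ± 7.72). Cox18, a cytochrome oxidase assembly gene, rose 1.28-fold and Adamts1, a secreted metalloprotease gene, 1.44-fold.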

How the data were processed

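The authors deposited 1 linear signal intensity per probe set and array. The submitters' processing notes name GCOS 1.4 and MAS5 for it. Trimming 2% at each end gave a mean of 150 on all arrays, which were thus scaled alike. Detection calls were not used here, so a dim signal could not be told from background. The 64 control probe sets were left out, which left 45037. Signals were turned to log2, and the 22519 probe sets whose mean over 6 arrays reached the median were kept. Knockout was compared with wild type by limma 3.58.1 (R 4.3.3) with lmFit, eBayes and an intensity trend, two-sided. Means and SDs are of linear signals, and fold changes are ratios of geometric means. Python 3.11.15 with pandas 2.3.3, numpy 2.4.6 and matplotlib 3.10.9 prepared and plotted the tables. The test was first tried on simulated data with known changes. The members and the 16 marker lists were chosen with earlier results of these data known. All member probe sets are named. Each other list gives up to 4 genes past the threshold with the smallest p, or 2 by p where fewer than 2 passed. Of the entries, those not on the array under 1 symbol are not analysed here. Genes named for a call that arises without an array were chosen after their values were seen. So were Lrp2, Laptm5, H2-Ab1, Ptprc, Col4a5, Lama5, Lamb2, Lamc1, Slc12a3, Ncam1, Vcam1 and Scnn1g. Alternatives changed the transform, normalization, filter, variance model, array weights, blocks and level of the test, and left out each array, with the filter and probe set choice of the full data.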

Additional observations from a re-analysis of the deposited data

How the results depend on the processing

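Across 16 alternatives the median log2 difference of the members was 0.29 to 0.44. The call of Synpo 1434089_at held under all of them, with an adjusted p up to 0.0353. The number of member probe sets called was 2, and 1 without an intensity trend, where Nphs1 had a limma adjusted p of 0.0556 (0.0158 to 0.0969 over all its alternatives). Leaving out 1 array gave 1 to 2. No member that missed the threshold passed it under any alternative. Without the trend 615 of all probe sets and 14 genes of the marker lists were called, against 1071 and 23. On station 1 alone, an alternative added later, the calls were 646 over all probe sets. Leaving out 1 array gave 660 to 1013 over all probe sets, the lowest without wild type array 1, and 18 to 24 in the lists. The direction of Cd2ap was not settled on 2 of its probe sets: 1420906_at was at 0.009 without wild type array 1, and at -0.123 without wild type array 3. Probe set 1420907_at was at 0.008 with array weights, 0.05 on station 1, 0.043 without knockout array 3 and 0.002 without wild type array 2, and at -0.049 without knockout array 1. Probe set 1420908_at stayed below 0, at -0.514 to -0.233 over its alternatives. With array number as a replicate block 2 member probe sets and 1101 of all probe sets were called. The correlation of deviations of same-numbered arrays was -0.042 to 0.039, and not every array correlated best with its own number, so the numbers do not show a pairing. The number of arrays and the lack of detection calls limit what dim probe sets can show, such as Synpo 1427045_at.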

Other observations

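Markers of other nephron segments were read against 2.80% of all genes called in each direction. Of 5 intercalated cell genes 3 rose, with a median log2 difference of 0.27: Aqp6, a vesicle aquaporin, 1.56-fold, Slc4a1, the chloride/bicarbonate exchanger AE1, 1.49-fold (limma adjusted p = 0.000946 and 0.00497), and Slc26a4, pendrin, 1.21-fold (0.0368), a call that ended without any 1 of the arrays, with a block for the station (0.0562) and within station 1 (0.203). The other kept probe sets of Aqp6 were at 0.26, 0.85 and 0.70, and none was called (limma adjusted p = 0.0681 to 0.63). That of Slc4a1 was at 0.59 (limma adjusted p = 0.00231). Of 4 genes of the distal convoluted and connecting tubule 2 rose, with a median of 0.41: Pvalb, parvalbumin, 1.38-fold (473 ± 7.61 against 345 ± 25.6, SD, n = 3), and Calb1, calbindin, 1.35-fold. Trpm6, a magnesium channel gene, was at 0.39 (limma adjusted p = 0.0529) and was called without knockout array 2 (0.0159). Slc12a3, a salt transport gene and the last of the 4, lay on the other side at -0.12 (limma adjusted p = 0.589), with overlapping groups. Of 5 thick ascending limb genes 1 rose, Umod, the gene of uromodulin, 1.33-fold, with a median of 0.115. That call ended without wild type array 1 (limma adjusted p = 0.0561) and on station 1 alone (0.0558), while Slc12a1, the sodium-potassium-chloride cotransporter gene, was called without knockout array 3 (0.0378) and with the station as a block (0.0406). The other kept probe set of Umod was at 0.41 (limma adjusted p = 0.00586 with all arrays). Of 6 genes of the S3 segment 1 rose, Slc7a13, an amino acid transporter gene, 1.29-fold, a call that ended without wild type array 1 (limma adjusted p = 0.0605). The other kept probe set of Slc7a13 was at 0.74 (limma adjusted p = 0.00234 with all arrays). Slc3a1, a cystine transport subunit gene, was at 0.20 (limma adjusted p = 0.19), and the median was 0.12.

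Of 7 principal cell genes none rose and 1 fell, with a median of -0.06 and 2 genes above 0. The groups did not overlap for 1 gene in the higher and 3 in the lower direction, against 13.6% and 11.6% of all genes. The higher gene was Scnn1g, a sodium channel subunit gene, at 0.28 (limma adjusted p = 0.156). Aqp3, the basolateral water channel, was 1.44-fold lower (626 ± 48.0 against 904.5 ± 60.5, SD, n = 3, limma adjusted p = 0.00321), with its other probe sets at log2 differences of -0.82 and -0.71. Aqp2, the apical water channel, was at -0.49 (limma adjusted p = 0.0681), and was called without knockout array 1 (0.0408) and with the station as a block (0.0279). Of 7 fibroblast genes 3 passed the filter on dim signals, with a median of 0.04. None of these passed limma's threshold, and 1 had an unadjusted p under 0.05, against 18.9% of all genes in either direction. Col3a1, a fibrillar collagen gene, was at 0.50 (limma adjusted p = 0.155) and Dcn, decorin, at -0.26 (0.356).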
